A study of Mus musculus with 55 samples.

Results

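The lysosome genes described here are 36 genes for cathepsins and other hydrolases, lysosomal membrane proteins, cofactors, subunits of the proton pump and the MiT/TFE transcription factors. They were chosen by name, with earlier results of these data known. Each gene's signal is the sum over the accessible regions that the deposited tables assign to it as nearest gene and that lie within 100 kb of its transcription start. All 36 genes had such regions, 341 of the 86549 regions within that distance, and all 36 were among the 16703 genes tested for H3K27ac and the 15764 tested for p300, of 18490 genes with a region.

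The study measured chromatin of bone marrow derived macrophages (BMDM) of C57BL/6 mice by chromatin immunoprecipitation and sequencing (ChIP-seq). H3K27ac, histone H3 acetylated at its lysine 27, is found at promoters and enhancers in use. The enzyme p300 is one of those that add this acetyl group. Marrow cells were grown into macrophages in medium of L cells, a source of the growth factor M-CSF. Cells starved of serum overnight received 3'-sialyllactose (3'SL, a sialylated oligosaccharide of milk) at 100 µg/ml, lipopolysaccharide (LPS, a bacterial product sensed by TLR4) at 10 ng/ml, both, or the vehicle PBS, for 2 h or 6 h. The series asks how 3'SL modulates the inflammatory response. It also holds libraries of the factors LXR and SREBP and of p300 from cells given GW3965 at 1 µM for 18 h. Re-analysed libraries of accessible chromatin (ATAC) are from untreated cells and from cells labelled KLA 1 h. None of these entered the fits. The 15 H3K27ac and 14 p300 libraries form 8 groups per mark, with 2 replicates each. Vehicle is an exception, with replicate 2 alone in the 6 h H3K27ac group and in the p300 groups of 2 h and 6 h. The series also lists replicate 1 vehicle samples for these groups, but no signal column was matched to them. Vehicle samples of replicate 1 without a stated time were left out as well, including an H3K27ac library that has values. The labels do not say whether replicates came from separate mice, so p-values measure only the spread between these libraries. Some H3K27ac labels go against titles, which were followed: replicate 1 of 3 groups titled 2 h (3'SL, LPS and both) has a treatment label of 1 h, and replicate 2 of both at 2 h has a vehicle label.

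Lysosomes degrade proteins, lipids and glycans with acid hydrolases, and a V-type proton pump keeps their lumen acidic. Macrophages are rich in lysosomes, which digest what the cells take up and supply peptides and lipids for further use. TFEB, TFE3 and MITF are basic helix-loop-helix factors known to bind E-box elements in promoters of lysosome genes.

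Libraries had 3199270 to 39597624 tags. The share of tags in the regions differed between replicates, with 53.9% to 64.8% in replicate 1 and 72.4% to 79.3% in replicate 2 for H3K27ac, and with 6.12% to 9.42% and 20.1% to 27.5% for p300. The p300 input library (chromatin without immunoprecipitation) had 4.77% of its tags in the regions, not far below replicate 1 of p300. The H3K27ac inputs had 8.65% to 8.85%. Input was not subtracted from any value. The 8 macrophage markers summed to 11700 to 18700 H3K27ac tags per 10,000,000. Neutrophil markers summed to 145 to 308 and fibroblast markers to 4.02 to 33.4, and no region was assigned to any of the 3 B cell markers. The 3 dendritic cell markers summed to 475 to 1510 for H3K27ac. Their p300 sums at 2 h were 241 in vehicle and 191 to 292 after 3'SL, below the 354 to 513 after LPS and the 381 to 497 after both, and the part of this in the 2 h results was not tested. Summed H3K27ac of the LPS-induced genes Il1b, Tnf, Cxcl10 and Socs3 was 1080 to 1690 without LPS and 4870 to 7350 with it. The titles and this check thus did not conflict over LPS in any library. Whether the libraries labelled 1 h were of 1 h or 2 h was not tested.

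The lysosome genes had a median of 7.5 regions (1 to 43), against 3.0 for all genes. Of their 341 regions, 178 (52.2%) were intronic, 98 (28.7%) intergenic and 45 (13.2%) annotated as promoters, against 43.3%, 33.1% and 17.5% of all regions. Mitf had 43 regions and the highest summed H3K27ac and p300. Ctsb, a cysteine protease with 15 regions, was next in both marks, and Ctsd, the main aspartic protease of the lysosome, followed for H3K27ac. Per region of equal width, H3K27ac was highest at Glb1 (β-galactosidase), Grn (progranulin) and Cd68 (macrosialin), with means over libraries of 436, 369 and 355 normalised tags per 10,000,000. For p300 the order per region was Cd68, Ctsk and Lipa, with means of 191, 75.2 and 73.2. Regions within 1 kb of the start held all H3K27ac of Cd68, Glb1 and Tfe3, which had no assigned region farther away. Such regions held 4.38% of that of Atp6v0d2, 8.73% of that of Tfeb and 10.7% of that of Ctsd. Asah2 had no region within 1 kb, and its nearest lay 4824 bp from the start.

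The promoters of the lysosome genes often held an E-box. In RefSeq promoters of build GRCm38.p6 (250 bases before to 50 after the start, both strands), the letters CACGTG occurred in 11 of the 30 lysosome genes with an entry (36.7%), against 8.09% of 27025 genes. The 11 were Atp6v0d1, Atp6v1a, Ctsa, Ctsd, Ctsl, Gla, Glb1, Lamp1, Lgmn, Mcoln1 and Naglu. The M-box TCATGTGA, a related element that does not contain CACGTG, occurred in Ctss, Gla and Grn (10.0% against 1.15%). A match describes the letters alone. The windows below show the E-box in capitals for 5 genes whose H3K27ac was lower after LPS, each on the strand of its gene. For Ctsl, Lamp1 and Lgmn that fall passed only with a block for the replicate, described below. The other 6 genes with an E-box did not pass in summed H3K27ac at 2 h in either fit, with changes of 0.09 for Glb1 and 0.26 for Atp6v0d1 and below 0 for Ctsa, Gla, Mcoln1 and Naglu. The E-boxes begin at positions -98, -131, -236, -61 and -49 from the start sites of the promoter entries, in the order printed. The windows lie at chr7:142387908-142387937 (Ctsd), chr16:44139373-44139402 (Atp6v1a), chr13:64370739-64370768 (Ctsl), chr8:13159088-13159117 (Lamp1, the first of 4 E-boxes) and chr12:102439124-102439153 (Lgmn). For Lgmn this start lies downstream of the start from which its region distances are measured. The Lgmn window lies inside the gene (chr12:102394082-102439728, RefSeq). The windows of Atp6v1a and Ctsl also lie inside their genes (chr16:44085402-44139702 and chr13:64361890-64370772), and those of Ctsd and Lamp1 do not.
Ctsd: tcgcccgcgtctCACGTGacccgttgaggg
Atp6v1a: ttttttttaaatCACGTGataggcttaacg
Ctsl: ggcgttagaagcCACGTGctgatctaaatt
Lamp1: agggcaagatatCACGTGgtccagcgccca
Lgmn: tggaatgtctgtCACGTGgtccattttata

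After 2 h of LPS, H3K27ac at lysosome genes was mostly lower than in vehicle. In limma, 5 of the 36 genes passed the test (adjusted p under 0.05 over all genes) and all 5 fell, by 1.97-fold to 4.57-fold. They were Ctsd, Tfeb, Npc1 and the pump subunits Atp6v0d2 and Atp6v1a. Over all genes tested, 5.78% passed (2.29% lower and 3.5% higher). The median log2 change of the 36 genes was -0.50, with 26 below 0, against 0.09 for all genes. With the authors' scaling in place of the TMM adjustment, the medians were -0.57 and 0.02, and 2 genes passed, Ctsd and Atp6v0d2. With the replicate number as a block, 17 passed, 15 lower and 2 higher (Ctsz and Asah2), against 23.4% of all genes (10.4% lower and 12.9% higher). Without any 1 of the 4 libraries, 2 passed in limma, again Ctsd and Atp6v0d2. The calls of Npc1, Tfeb and Atp6v1a also ended without the filter on low values (adjusted p = 0.0507, 0.0517 and 0.0517). In these bulk cultures, fewer cells with the mark and less of it per cell cannot be told apart.

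**Figure D1:**
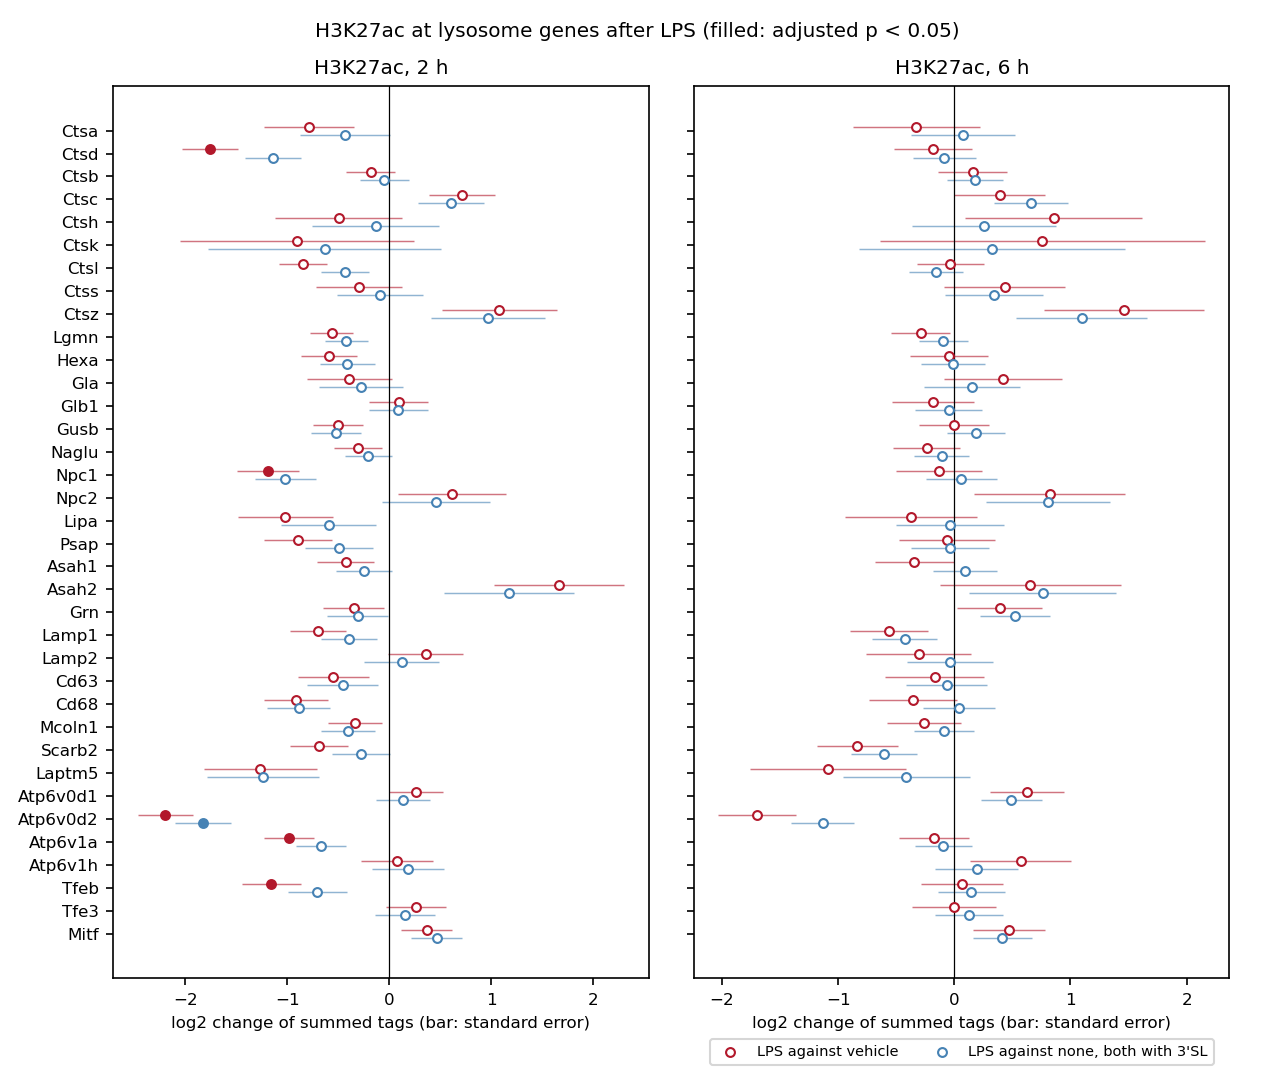
Log2 change of summed H3K27ac tags (x axis, bars are standard errors) for the 36 lysosome genes (y axis) at 2 h (left) and 6 h (right), for LPS against vehicle (red) and for LPS against none in cells that also received 3'SL (blue). Filled points passed the test: 5 red and 1 blue at 2 h, all left of 0, and none at 6 h.

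Ctsd showed the clearest fall among the proteases. Its summed H3K27ac was 6525 and 5984 normalised tags per 10,000,000 in vehicle at 2 h (replicates 1 and 2, an order kept throughout) and 2028 and 1679 after LPS. In the libraries with 3'SL it was 6348 and 4012 without LPS and 2527 and 2076 with it. No library with LPS at 2 h reached any library without it. The change after LPS was -1.76 ± 0.27 (log2, SE, n = 2 against 2), 3.39-fold lower (limma adjusted p = 0.00664). It held without each of the 4 libraries (adjusted p = 0.0394 to 0.0491), including the LPS library labelled 1 h (0.0394). At 6 h the groups overlapped, with 5768 in vehicle, 5169 and 4979 after LPS, 6271 and 4503 after 3'SL and 5243 and 4788 after both. Ctsa, a serine carboxypeptidase that protects other lysosomal enzymes, had a log2 change of -0.79 ± 0.45 at 2 h that did not pass.

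None of the 8 cysteine proteases passed in limma at 2 h, and with the block Ctsk, Ctsl and Lgmn were lower and Ctsz higher. Ctsl, a broad endopeptidase, read 674 and 562 in vehicle and 369 and 317 after LPS (-0.85 ± 0.24 log2, adjusted p = 0.064, with the block 0.008). With 3'SL it read 596 and 480.0 without LPS and 386 and 408 with it. After 6 h the values were 441 in vehicle, 428 and 433 after LPS, 562 and 446 after 3'SL and 390.0 and 517 after both. At 2 h the 4 libraries with LPS lay below the 4 without it, and at 6 h the groups overlapped.

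Lgmn encodes legumain, which cuts after asparagine and matures other cathepsins. Its H3K27ac was 3532 and 3717 in vehicle, 2780.2 and 2166 after LPS, 3547 and 3288 after 3'SL and 2415 and 2704 after both at 2 h. The 6 h values were 3815 in vehicle, 3139.9 and 3096 after LPS, 3561 and 3099.6 after 3'SL and 3119 and 3104 after both. The fall after 2 h of LPS was -0.56 ± 0.21 (log2, adjusted p = 0.161, with the block 0.0249), and the 4 libraries with LPS at 2 h lay below the 4 without it. At 6 h the groups overlapped.

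Ctsk, a collagen-degrading cathepsin best known from osteoclasts, differed more between replicates than between treatments. Vehicle gave 2045 and 794 and LPS 1539.6 and 301 at 2 h, with 1838 and 537 after 3'SL and 1459.7 and 281 after both. For 6 h they were 779 in vehicle, 2538 and 684 after LPS, 2025 and 450.3 after 3'SL and 2194 and 652 after both. Each replicate 1 library was above each replicate 2 library. The 2 h change of -0.90 ± 1.14 passed only with the block (adjusted p = 0.75 and 0.0117), and without LPS replicate 2 it turned to 0.27 in limma.

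Ctsz, a carboxypeptidase, was the 1 protease that rose with the block. It measured 1966 and 857 in vehicle and 3423 and 2201 after LPS at 2 h, and 1779 and 762 after 3'SL against 3332 and 1559 after both. At 6 h vehicle gave 1049.9, LPS 3337 and 2501, 3'SL 1735 and 886 and both 3347 and 2104. Every library with LPS exceeded each library of its replicate and time without LPS. The rise of 1.08 ± 0.56 at 2 h did not pass without the block (adjusted p = 0.339) and passed with it (0.00234). Ctsb, which cuts both inside proteins and from their ends, read 5428 and 5309 in vehicle, 5363 and 4194 after LPS, 5526 and 4066 after 3'SL and 5021 and 4198 after both at 2 h. At 6 h Ctsb read 5430.1 in vehicle, 6031 and 6078 after LPS, 5688 and 4679.5 after 3'SL and 5784 and 5867 after both. The groups overlapped at 2 h, with a change of -0.18 ± 0.24. The 3 remaining cysteine proteases Ctsc, Ctsh and Ctss, which passed in no comparison of summed H3K27ac, had 2 h changes of 0.72, -0.49 and -0.29.

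**Figure D2:**
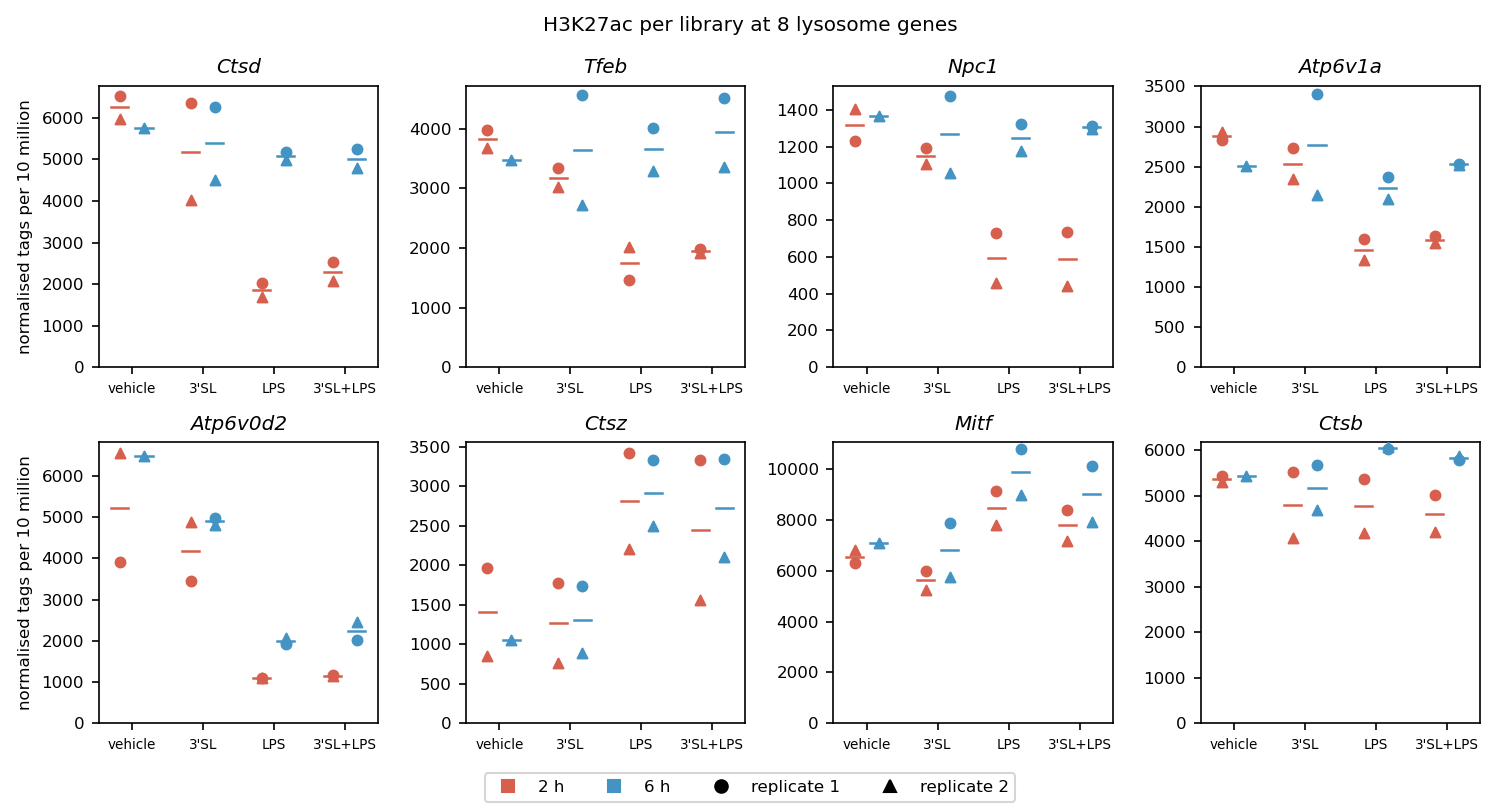
Summed H3K27ac (y axis, normalised tags per 10,000,000, from 0) of 8 lysosome genes in each library by treatment (x axis), with 2 h in red, 6 h in blue, replicate 1 as circles, replicate 2 as triangles and group means as bars. For Ctsd, Npc1, Atp6v1a and Tfeb the 2 h libraries with LPS sit below all others, Atp6v0d2 is low with LPS at both times, and Ctsz is higher with LPS within each replicate.

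The proton pump held the gene with the largest fall. Atp6v0d2 encodes the d2 subunit of the membrane part of the pump, found in macrophages and osteoclasts, and lies at chr4:19876838-19922566 (mm10, RefSeq). Its H3K27ac was 3909 and 6547 in vehicle and 1106 and 1105 after LPS at 2 h, and 3464 and 4888 after 3'SL against 1169 and 1155 after both. In the 6 h libraries it read 6480.0 in vehicle, 1929 and 2070.3 after LPS, 4992 and 4818 after 3'SL and 2025 and 2464 after both. No library with LPS reached any without it, at either time. The 2 h fall was -2.19 ± 0.27, 4.57-fold (adjusted p = 0.00262), and 0.00883 to 0.0364 without each library in turn. Over regions within 20 kb alone it was -1.85 with adjusted p = 0.451.

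Atp6v1a, the catalytic A subunit of the cytosolic part, read 2827 and 2931 in vehicle and 1593 and 1333 after LPS at 2 h, with 2729 and 2347 after 3'SL and 1639 and 1543 after both. The 6 h libraries gave 2510.0 in vehicle, 2365 and 2098 after LPS, 3403 and 2147 after 3'SL and 2537 and 2521 after both. The fall at 2 h was -0.98 ± 0.24, 1.97-fold (adjusted p = 0.0428), and the 6 h groups overlapped. The call ended without any 1 of the 4 libraries (adjusted p = 0.116 to 0.199). Atp6v0d1, the widely expressed d1 subunit, and Atp6v1h, a regulatory subunit, had changes of 0.26 and 0.08, neither passing. Subunits d1 and d2 of the same position in the pump thus had changes on opposite sides of 0, and that of d2 passed. The difference between the 2 genes was not tested.

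Among the transcription factors, Tfeb fell and Mitf and Tfe3 did not pass at the level of the gene. Tfeb, a regulator of lysosome genes, had 3982 and 3672 in vehicle and 1462 and 2014 after LPS at 2 h, and 3337 and 3014 after 3'SL against 1977 and 1918 after both. The 6 h values were 3478 in vehicle, 4017 and 3295 after LPS, 4558 and 2719.7 after 3'SL and 4514 and 3355 after both. At 2 h the change was -1.16 ± 0.29, 2.23-fold lower (adjusted p = 0.0426), and it did not pass without any 1 of the 4 libraries (0.074 to 0.237) or within 20 kb alone (0.0509). Mitf, the family member known from melanocytes and osteoclasts, had 6291 and 6792 in vehicle, 9141 and 7784 after LPS, 5998 and 5256 after 3'SL and 8392 and 7173 after both at 2 h. Its 6 h values were 7081 in vehicle, 10762 and 8969 after LPS, 7851 and 5733 after 3'SL and 10111 and 7898 after both. The libraries with LPS exceeded those without at both times, at 2 h by a log2 change of 0.37 ± 0.25 against vehicle (adjusted p = 0.495). Tfe3 read 523 and 542 in vehicle, 511 and 802 after LPS, 536 and 667 after 3'SL and 579 and 771 after both at 2 h. After 6 h it read 634 in vehicle, 527 and 762 after LPS, 470.4 and 639 after 3'SL and 580.0 and 618 after both. Its groups overlapped throughout, with a 2 h change of 0.27 ± 0.29.

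Of the 7 genes for lipid handling and cofactors, Npc1 passed in limma. Npc1, the membrane protein that exports cholesterol from lysosomes, read 1229.5 and 1403 in vehicle and 728 and 458 after LPS at 2 h, with 1192 and 1105 after 3'SL and 733 and 439 after both. It stood at 1365 in vehicle, 1321 and 1174 after LPS, 1478 and 1057 after 3'SL and 1313 and 1296 after both at 6 h. The 2 h libraries with LPS lay below all others, and the fall was 2.27-fold (-1.19 ± 0.30 log2, adjusted p = 0.0466). It did not pass without any 1 of the 4 libraries (adjusted p = 0.0656 to 0.256) or in edgeR (0.0579). Its partner Npc2, a soluble cholesterol carrier, had a change of 0.62 ± 0.53 that did not pass.

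Lipa, the acid lipase that frees cholesterol from its esters, measured 3987 and 3839 in vehicle and 2971 and 1258 after LPS at 2 h, and 3226 and 2597 after 3'SL against 2856 and 1293 after both. At 6 h vehicle gave 3646, LPS 3673 and 2149.8, 3'SL 4521 and 3200.1 and both 4219 and 3240.3. Its 2 h change of -1.02 ± 0.47 passed only with the block (adjusted p = 0.266 and 0.0117). Psap, the precursor of the saposins that help degrade sphingolipids, gave 4489 and 4228 in vehicle, 3306 and 1662 after LPS, 4392 and 3979 after 3'SL and 3298 and 2677 after both at 2 h. Its 6 h values were 4138 in vehicle, 4733 and 3315 after LPS, 5251 and 3785 after 3'SL and 4854 and 3887 after both. The 2 h change of Psap was -0.89 ± 0.34 (adjusted p = 0.167, with the block 0.00671). For both genes every LPS library at 2 h was below its vehicle counterpart, by more in replicate 2 than in replicate 1.

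Asah2, a neutral ceramidase that in contrast to Asah1 works outside the lysosome, was the other gene that rose with the block. It read 263 and 385 in vehicle, 1453 and 708 after LPS, 287 and 312 after 3'SL and 1066 and 429 after both at 2 h. At 6 h it read 404 in vehicle, 1181 and 342 after LPS, 352 and 364 after 3'SL and 954 and 385 after both, which is high in the replicate 1 libraries with LPS and near the libraries without LPS in replicate 2. The 2 h change of 1.67 ± 0.64 passed with the block (adjusted p = 0.0187) and not without it (0.173). Asah1 and Grn had changes of -0.43 and -0.35 that did not pass.

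None of the 7 membrane protein genes passed in limma at 2 h, and with the block 4 were lower, Lamp1, Cd63, Cd68 and Laptm5. Lamp1, the main glycoprotein of the lysosomal membrane, gave 879 and 933 in vehicle, 696 and 448 after LPS, 905 and 773 after 3'SL and 746 and 546 after both at 2 h. The 6 h libraries gave 860.3 in vehicle, 659 and 514 after LPS, 1008 and 784 after 3'SL and 707 and 617 after both. At both times its LPS libraries were below all libraries without LPS (2 h change -0.70 ± 0.28, adjusted p = 0.192, with the block 0.0137).

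Cd68, a scavenger-type glycoprotein used as a macrophage marker, read 870.2 and 822 in vehicle, 531 and 379 after LPS, 808 and 644 after 3'SL and 544 and 278 after both at 2 h. After 6 h the values were 1064 in vehicle, 802 and 861 after LPS, 817 and 687 after 3'SL and 726 and 819 after both. The 2 h change was -0.91 ± 0.31 (adjusted p = 0.125, with the block 0.0137), and no 2 h library with LPS reached one without it. Cd63, a tetraspanin of late endosomes, read 1125 and 841 in vehicle, 746 and 594 after LPS, 1244 and 722 after 3'SL and 742 and 644 after both at 2 h. The 6 h values were 872 in vehicle, 992 and 605 after LPS, 1159 and 862 after 3'SL and 1155 and 789 after both. For Cd63 the groups overlapped at 2 h when replicates were mixed, and each LPS library was below its own replicate's control (-0.55 ± 0.35, adjusted p = 0.456, with the block 0.0372).

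Laptm5, a lysosomal membrane protein of blood cells, gave 1013 and 2044 in vehicle, 532 and 676 after LPS, 1189 and 2366 after 3'SL and 562 and 900.2 after both at 2 h. At 6 h the values were 2165 in vehicle, 701 and 1481 after LPS, 1156 and 2145 after 3'SL and 797 and 1755 after both. Its 2 h fall of -1.26 ± 0.55 passed with the block (adjusted p = 0.000603) and not without it (0.239). Replicate 2 was above replicate 1 in every group that has both. Lamp2, Scarb2 (LIMP-2, the receptor that carries β-glucocerebrosidase) and Mcoln1 (a calcium channel of lysosomes) had changes of 0.36, -0.69 and -0.34 and did not pass in either fit.

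None of the 5 glycosidases passed in limma, and their 2 h changes ran from -0.59 to 0.09. Gusb (β-glucuronidase) measured 1210.2 and 1312 in vehicle, 736 and 1074 after LPS, 1200.0 and 1387 after 3'SL and 779 and 1040.3 after both at 2 h. It measured 1430.0 in vehicle, 1426 and 1428 after LPS, 1138 and 1373 after 3'SL and 1338 and 1514 after both at 6 h. Its 2 h change of -0.50 ± 0.25 passed only with the block (adjusted p = 0.306 and 0.0432), and the 2 h LPS libraries lay below those without LPS. Hexa, Gla, Glb1 and Naglu, whose enzymes trim gangliosides, globosides, galactosides and heparan sulfate, had 2 h changes of -0.59, -0.39, 0.09 and -0.31 and did not pass in either fit.

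In cells that also received 3'SL, the response to 2 h of LPS had the same sign in all 36 genes as in cells without it. The 2 contrasts use different libraries, and their log2 changes correlated across the 36 genes with r = 0.973 (genes are not replicates, and the libraries share their replicate numbers). In limma 1 gene passed, Atp6v0d2, which fell 3.54-fold (-1.82 ± 0.27 log2, adjusted p = 0.00955), against 2.44% of all genes (0.832% lower). Its call ended without 3'SL replicate 2 (adjusted p = 0.0754), without replicate 1 of both (0.0722) and without replicate 2 of both, the library with the vehicle label (0.0671). It also ended with regions within 20 kb alone (0.801) and with the authors' scaling (0.0509). With the block 7 genes passed, against 15.6% of all genes (6.97% lower and 8.66% higher): Ctsd, Npc1, Atp6v0d2, Atp6v1a, Cd68 and Laptm5 lower and Ctsz higher. The fall of Ctsd was -1.14 ± 0.27 here (adjusted p = 0.0567, with the block 0.000981). Over the 36 genes the median was -0.35, against 0.07 for all genes.

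The difference between these 2 responses was tested itself, as was each effect of 3'SL. No lysosome gene passed for the LPS response with against without 3'SL at 2 h, with 0.0% of all genes passing, and the value was 0.62 ± 0.39 (log2) for Ctsd and 0.37 ± 0.39 for Atp6v0d2. Both against LPS alone at 2 h gave 0.31 ± 0.27 for Ctsd and 0.07 ± 0.27 for Atp6v0d2, again with 0 lysosome genes and 0.0% of all genes passing. For 3'SL against vehicle at 2 h the 36 changes ran from -0.43 to 0.26, with 0 genes and 0.0% of all genes passing. The same 3 tests at 6 h also called 0 lysosome genes and 0.0% of all genes. In each of these 6 tests limma gave 0 lysosome genes at an unadjusted p under 0.05, and edgeR and DESeq2 called 0.

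After 6 h of LPS no lysosome gene passed in limma, and Atp6v0d2 and Ctsz passed with the block. For LPS against the single vehicle library 0 of 36 genes passed in limma (2 at an unadjusted p under 0.05, 0 in edgeR, 1 in DESeq2), against 0.569% of all genes (0.168% lower). The median change was -0.05, against -0.03 for all genes. With the block 2 passed (7.83% of all genes, 3.89% lower and 3.94% higher), Atp6v0d2 at -1.59 (adjusted p = 0.00288, without the block 0.0552) and Ctsz at 1.02 (0.0306 and 0.444). With 3'SL, both against 3'SL alone at 6 h likewise gave 0 in limma (1 at an unadjusted p under 0.05, 0 in edgeR, 1 in DESeq2), against 0.671% of all genes. The block called Atp6v0d2 and Ctsz there too (8.65% of all genes, 3.18% lower and 5.47% higher), with Atp6v0d2 at -1.13 (adjusted p = 0.00451) and Ctsz at 1.10 (0.00594).

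H3K27ac after 6 h of LPS was above that after 2 h in 30 of the 36 genes. The median of this change was 0.37, against -0.11 for all genes. In limma 0 passed (9 at an unadjusted p under 0.05, 0 in edgeR, 4 in DESeq2), against 0.0% of all genes. With the block 3 passed and rose, against 1.75% of all genes: Ctsd by 1.46 (adjusted p = 0.00468), Npc1 by 1.11 (0.0268) and Tfeb by 1.08 (0.0344). Of the 5 genes that fell at 2 h, Ctsd, Npc1, Tfeb and Atp6v1a overlapped libraries without LPS at 6 h, and Atp6v0d2 did not. The difference between Atp6v0d2 and the others was not tested, and none of the 5 passed in limma at 6 h. The 5 were picked through the LPS libraries of 2 h, which the change from 2 h to 6 h also uses.

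Single regions showed where the changes lay. For H3K27ac after 2 h of LPS, 38 of the 334 regions tested passed, 31 lower and 7 higher, in 14 of the 36 genes. Of all regions 5.14% passed (2.07% lower and 3.08% higher). Windows of neighbouring regions overlap and share tags, and the 38 form 28 separate stretches. Only 5 of the 38 lay within 1 kb of a start. With the block 138 passed (23% of all regions), 101 lower and 37 higher. Without 1 of the 4 libraries, 7 to 19 passed.

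Ctsd had 11 regions that fell, in 7 stretches, from position -15859 to 924 in bp from its start (negative is upstream). The region with the lowest p, at chr7:142390056-142391056 (mm10, intergenic, position -2686), read 436 and 607 in vehicle and 114 and 140.5 after LPS, a change of -2.02 ± 0.26 (adjusted p = 0.00353). With 3'SL it read 454 and 388 without LPS and 144 and 164 with it (0.0198).

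Atp6v0d2 had 7 regions in 5 stretches that fell, from 21293 to 49594 bp downstream of the start. The region at chr4:19891863-19892863 in intron 2 of 7 read 132 and 336 in vehicle and 14.1 and 19.5 after LPS, a change of -3.59 ± 0.53 (adjusted p = 0.00497). With 3'SL it read 104 and 182 without LPS and 15.1 and 30.6 with it (0.0279). At 6 h the region that passed was another, chr4:19872472-19873472, intergenic and 49594 bp downstream, with 815 in the single vehicle library and 76 and 58.7 after LPS (0.0463).

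Of the Tfeb regions 4 fell, 2 of them within 1 kb of the start and the other 2 in intron 1, where the larger change of the 2 was -2.29 ± 0.59 (log2, adjusted p = 0.0483). The region at chr17:47737342-47738342, 89 bp upstream of the start, read 255 and 273 in vehicle and 57.2 and 88.3 after LPS, -1.88 ± 0.32 (adjusted p = 0.00962). Ctsl also fell at its start (134 bp downstream, 5' UTR), from 299.6 and 325 to 162 and 134 (0.049). Atp6v1a fell in intron 1 at chr16:44126122-44127122, from 154 and 248 to 42.4 and 59.4 (0.0189), and Npc1 in intron 1, from 72.6 and 95.1 to 25.6 and 37.7 (0.0439).

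Ctsb, which did not pass as a sum, had 1 region that fell. That intergenic region at chr14:63103767-63104767 (position -18195) read 514 and 518 in vehicle and 195 and 114 after LPS (-1.78 ± 0.30, adjusted p = 0.00894). With 3'SL the same region read 464 and 347 without LPS and 173 and 130.4 with it (0.035). Psap fell at chr10:60269286-60270286, from 663 and 782 to 375 and 309.9 (0.0277). Lgmn fell at its start, 42 bp downstream at chr12:102439271-102440271, from 266 and 215 to 131 and 78.2 (-1.23 ± 0.31, adjusted p = 0.0452). Another region assigned to Lgmn, 74614 bp downstream at chr12:102364699-102365699, lies in an intron of Rin3 and fell from 208 and 282 to 78.8 and 94.1 (0.0404).

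The 7 regions that rose belonged to Mitf, Ctsc, Asah2, Naglu and Atp6v0d1. In Mitf, a region in intron 1 at chr6:97866265-97867265 read 115 and 137 in vehicle and 506 and 411 after LPS (1.85 ± 0.25, adjusted p = 0.00403). With 3'SL it read 93.7 and 91.2 without LPS and 397 and 382 with it at 2 h (0.00408), and 128 and 119 against 440.3 and 329 at 6 h (0.0214). Ctsc, whose product activates granule proteases, had an intergenic region at position -6367, chr7:88271218-88272218, that rose in all 4 LPS contrasts. That region read 26.6 and 32.7 in vehicle and 121 and 122 after LPS at 2 h (2.00 ± 0.32, 0.00666), and 31 against 159.8 and 117 at 6 h (0.0391).

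In Asah2 a region in intron 2 at chr19:32070021-32071021 went from 2.76 and 2.04 in vehicle, at most a few tags, to 47.8 and 40.5 after LPS (adjusted p = 0.0203). In Atp6v0d1 a region in intron 1 at chr8:105552547-105553547 went from 25.7 and 22.5 to 74.8 and 60.1 at 2 h (0.0454) and from 23 to 111 and 141 at 6 h (0.0415). The region assigned to Naglu, chr11:101052408-101053408, lies in intron 18 of the neighbour Atp6v0a1, itself a pump subunit, and went from 5.51 and 9.2 to 60.6 and 56.5 (0.0214).

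**Figure D3:**
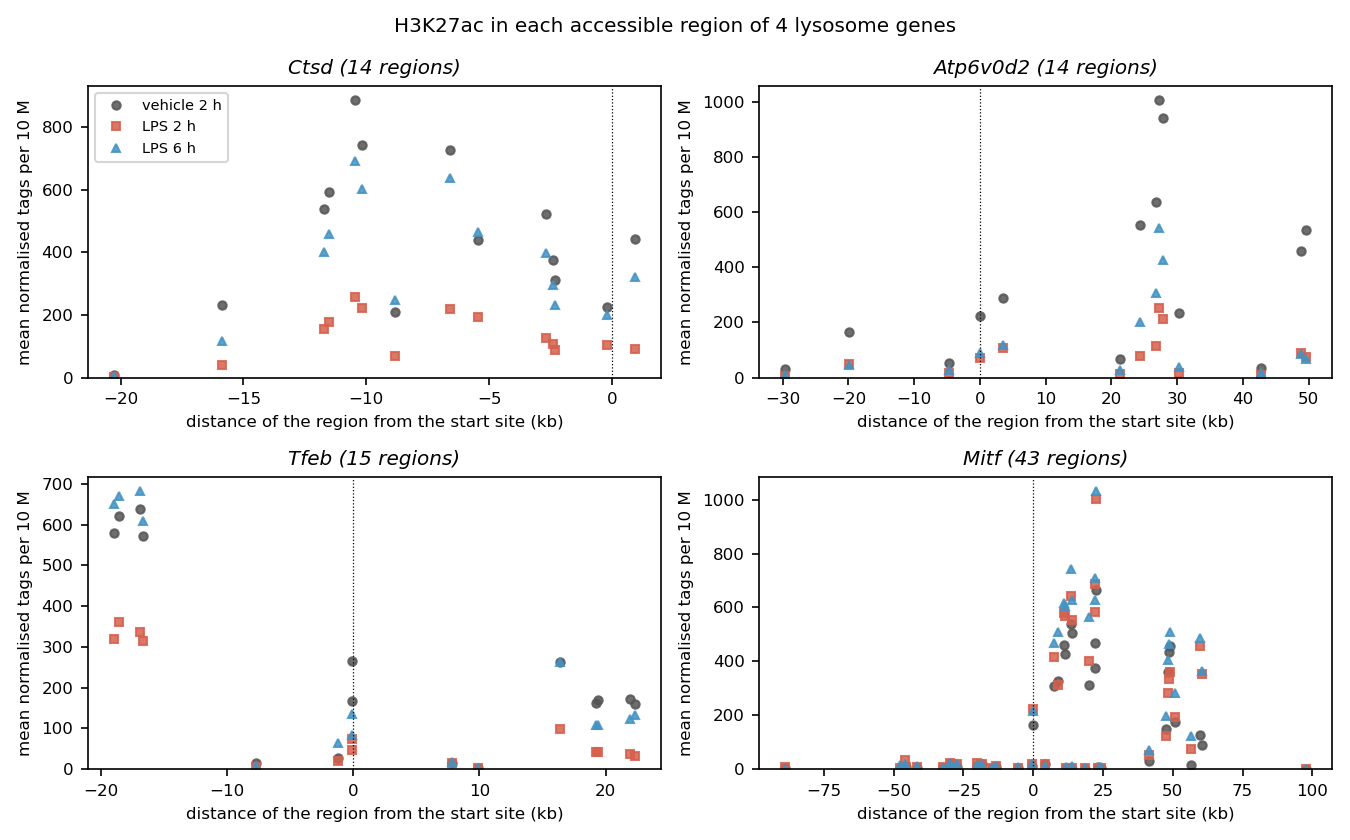
Mean H3K27ac per region (y axis, normalised tags per 10,000,000) against the distance of the region from the transcription start (x axis, kb) for Ctsd, Atp6v0d2, Tfeb and Mitf, in vehicle at 2 h (grey circles), LPS at 2 h (red squares) and LPS at 6 h (blue triangles). Ctsd and Tfeb regions drop at 2 h and are higher again at 6 h, Atp6v0d2 regions between 20 and 50 kb stay lower at 6 h, and Mitf regions near 60 kb are higher with LPS.

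In the other contrasts fewer regions of lysosome genes passed. With 3'SL at 2 h there were 13, 10 lower and 3 higher, in 5 genes. Of all regions 2.46% passed (0.817% lower and 1.65% higher), and with the block 98 passed (16.2% of all regions). At 6 h there were 3 for LPS against vehicle (0.677%, and 26 with the block, 9.18%). For both against 3'SL at 6 h there were 4, all higher (0.645%, with 0.567% higher, and 35 with the block, 9.76%). Without 1 of the libraries compared, 0 to 2 of the 13 and 0 at 6 h passed.

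For p300, 1 of the 36 lysosome genes passed in limma after 2 h of LPS, Atp6v0d2, against 1.6% of all genes. It read 1288 in the single vehicle library and 188 and 145 after LPS, and 906 and 1142 after 3'SL against 180.3 and 133 after both. For 6 h they were 1213 in vehicle, 243 and 308 after LPS, 1442 and 894 after 3'SL and 351 and 416 after both. No library with LPS reached one without it, at either time. The fall was 7.76-fold at 2 h (-2.96 ± 0.42 log2, n = 2 against 1, adjusted p = 0.00591), and 0.0266 to 0.0387 without either LPS library. The spread behind these p-values comes from the other groups of the same fit, and a group of 1 library is assumed to vary like them, which also holds for the 6 h vehicle of H3K27ac. The single vehicle library is of replicate 2, whose share of tags in regions was above that of replicate 1, and the part of this in the result was not tested. With 3'SL the fall was 6.53-fold (-2.71 ± 0.34, adjusted p = 0.0039), again the only call (1.59% of all genes), and 0.0554 without replicate 2 of both. The authors' scaling without further adjustment, which moves the median change of all genes for LPS against vehicle at 2 h by -0.845 on the log2 scale, and sums over regions within 20 kb each ended both calls (adjusted p = 0.999 and 1 with that scaling, 0.624 and 0.289 within 20 kb). The log2 changes were then -3.84 and -2.80 with that scaling, under which 0 of all 15764 genes passed in either contrast, and -1.47 and -2.24 within 20 kb. With the authors' scaling, the lowest p300 library of Atp6v0d2 read 91.6, below the 141 of the input. Laptm5 also went below its input (36.9 against 59.5), while the lowest libraries of Ctsd (215 against 163) and Lgmn (232 against 146) stayed above.

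With the replicate block, 6 genes fell in p300 after 2 h of LPS, against 8.84% of all genes, and 7 passed in the arm with 3'SL, 5 lower and 2 higher (8.32%). Atp6v0d2, Ctsd and Lgmn were lower in both. Ctsd read 759 in vehicle, 441 and 228 after LPS, 1246 and 552 after 3'SL and 473 and 288 after both at 2 h. In the 6 h libraries it read 608 in vehicle, 553 and 585 after LPS, 1547 and 629.9 after 3'SL and 821 and 589.9 after both. The 4 libraries with LPS at 2 h were below the 3 without it, with block changes of -1.63 against vehicle (adjusted p = 0.00305) and -1.17 with 3'SL (0.00714).

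Lgmn read 903 in vehicle, 622 and 406 after LPS, 1008 and 900.5 after 3'SL and 521 and 450.0 after both at 2 h. The 6 h libraries gave 945 in vehicle, 596 and 534 after LPS, 1275 and 849 after 3'SL and 699.9 and 667 after both, so that at both times the libraries with LPS were below those without. Its block adjusted p was 0.0364 at 2 h and 0.00902 with 3'SL.

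Lipa, Psap and Ctsk fell with the block against the vehicle alone. Lipa read 657 in vehicle, 613 and 199 after LPS, 838 and 502 after 3'SL and 637 and 256 after both at 2 h. At 6 h the values were 617 in vehicle, 720.0 and 409 after LPS, 1230.4 and 721 after 3'SL and 1097 and 732 after both (block change -1.39, adjusted p = 0.00676). Psap read 558 in vehicle, 574 and 172 after LPS, 1006 and 485 after 3'SL and 615 and 311 after both at 2 h. After 6 h it read 537 in vehicle, 640.2 and 413 after LPS, 1349 and 646 after 3'SL and 785 and 576 after both (-1.32, 0.0122). Ctsk read 302 in vehicle, 464 and 118 after LPS, 672 and 226 after 3'SL and 407 and 174 after both at 2 h. The 6 h libraries gave 267 in vehicle, 490.1 and 210.3 after LPS, 829 and 217 after 3'SL and 617 and 271 after both (-1.12, 0.031). In all 3 genes the fall is seen within replicate 2, which holds the only 2 h vehicle library in the fit. The replicate 1 LPS library was at or above the vehicle for Psap and Ctsk. Without LPS replicate 2 the change turned to 0.62 for Ctsk and 0.04 for Psap in limma.

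With 3'SL, Atp6v1a and Laptm5 fell in p300 with the block, and Asah2 and Mitf rose. Atp6v1a read 179.9 in vehicle, 211 and 112 after LPS, 380.2 and 177 after 3'SL and 173 and 54.7 after both at 2 h. After 6 h the values were 179 in vehicle, 239 and 169 after LPS, 549 and 213 after 3'SL and 270.2 and 197 after both (adjusted p = 0.00191 with 3'SL). Laptm5 read 297 in vehicle, 133 and 100.3 after LPS, 221 and 402 after 3'SL and 114 and 196 after both at 2 h. At 6 h the values were 235 in vehicle, 95 and 172 after LPS, 226 and 424 after 3'SL and 148 and 162 after both (0.0404). Both are genes whose H3K27ac also fell in the same arm with the block.

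Asah2 read 77.4 in vehicle, 451 and 202 after LPS, 59.1 and 62.3 after 3'SL and 334 and 68.1 after both at 2 h. The 6 h values were 54.5 in vehicle, 268 and 107 after LPS, 82.6 and 43.6 after 3'SL and 274 and 55.2 after both (block change with 3'SL 1.30, adjusted p = 0.0373). Mitf read 693 in vehicle, 2341 and 1118 after LPS, 1124 and 599 after 3'SL and 2144 and 991 after both at 2 h. For 6 h they were 748 in vehicle, 1573 and 1212 after LPS, 1638 and 739 after 3'SL and 1824 and 915 after both (0.83, 0.0322). For Mitf each library of both was above its replicate of 3'SL alone, and in replicate 2 of both Asah2 stayed near the level without LPS.

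**Figure D4:**
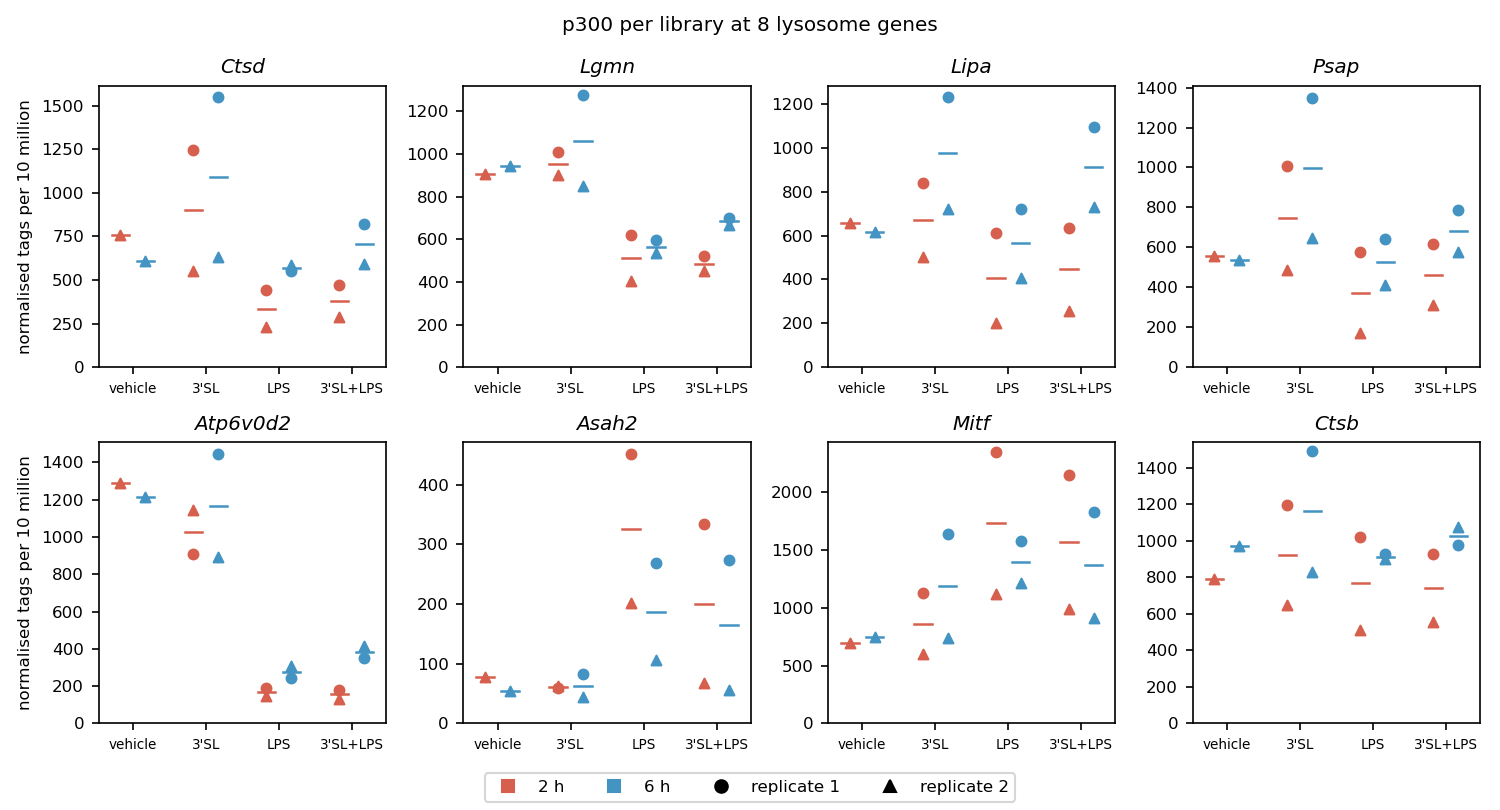
Summed p300 (y axis, normalised tags per 10,000,000, from 0) of 8 lysosome genes in each library by treatment (x axis), with 2 h in red, 6 h in blue, replicate 1 as circles, replicate 2 as triangles and group means as bars. Atp6v0d2 libraries with LPS lie between 133 and 416 and those without between 894 and 1442, Lgmn is lower with LPS at both times, and Ctsb overlaps throughout.

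The remaining genes with high p300 or known as regulators did not pass. Ctsb read 792 in vehicle, 1020.3 and 514 after LPS, 1199 and 651 after 3'SL and 931 and 555 after both at 2 h. In the 6 h libraries it read 971 in vehicle, 929 and 901 after LPS, 1492 and 832 after 3'SL and 981 and 1074 after both. Ctsc read 716 in vehicle, 889 and 959 after LPS, 389 and 912 after 3'SL and 959 and 918 after both at 2 h. At 6 h it read 571 in vehicle, 771 and 849 after LPS, 504 and 751 after 3'SL and 827 and 729 after both. Tfeb read 283 in vehicle, 401 and 242 after LPS, 687 and 269 after 3'SL and 382 and 206 after both at 2 h. Its 6 h values were 363 in vehicle, 534 and 299.9 after LPS, 964 and 355 after 3'SL and 681 and 329.6 after both. The Tfeb change after 2 h of LPS was 0.14 in limma and -0.38 with the block, neither passing. Tfe3 read 23.4 in vehicle, 86.1 and 51.4 after LPS, 57.9 and 40.7 after 3'SL and 59.8 and 60.9 after both at 2 h. Its 6 h values were 42.7 in vehicle, 64.6 and 52.3 after LPS, 69.8 and 59.3 after 3'SL and 67.5 and 58.4 after both. With the authors' scaling, Tfe3 ran from 25.1 to 109 over the p300 libraries, against 21.2 in the input.

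Over the 36 genes the median p300 change after 2 h of LPS was -0.21 in limma, against 0.11 for all genes, and -0.39 against 0.002 with 3'SL. With the authors' scaling the first pair was -1.10 and -0.73. At 6 h 0 genes passed in limma for LPS against vehicle (1 at an unadjusted p under 0.05, 0 in edgeR, 1 in DESeq2, 0.133% of all genes) and 0 for both against 3'SL (2, 0 and 1 in the same order, 0.0761% of all genes). The block called Atp6v0d2 in each (0.000366 and 0.000948, with 2.63% and 3.8% of all genes). For 6 h against 2 h of LPS, both against LPS, 3'SL against vehicle and the difference between the LPS responses, limma called 0 lysosome genes, with 0 at an unadjusted p under 0.05 and 0 in edgeR and DESeq2. The share of all genes was 0.0381% for 3'SL against vehicle at 2 h and 0.0% in the others.

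Among single p300 regions, 7 of 297 passed after 2 h of LPS (2.2% of all regions, and 39 with the block, 7.11%), 4 of them lower and in Atp6v0d2. The region at chr4:19894681-19894881 in its intron 2 read 283 in vehicle and 24.8 and 26.3 after LPS (-3.42 ± 0.62, adjusted p = 0.00759). It read 128 and 328 after 3'SL and 19.6 and 23.7 after both (0.00447), and at 6 h 248 and 297 and 44.3 and 33.1 (0.0298). The 3 regions that rose had 0 tags in the single vehicle library, so their folds are given against 3 tags in that library. These folds allow for counting error in the vehicle library only. The p300 replicates differed by more than counting error (chi-square per degree of freedom of 8.34 to 12.7 over regions). In Mitf intron 1, at chr6:97863416-97863616, LPS gave 70.8 and 43.9, 10.6-fold for the mean and 8.12-fold for the lower library. At the Tfe3 promoter, 41 bp upstream of the start, LPS gave 18.9 and 11.3, 2.79-fold for the mean and 2.09-fold for the lower library. In the region assigned to Naglu, in the last exon of Atp6v0a1, LPS gave 11.8 and 15, 2.49-fold and 2.18-fold in the same order. The 6 h vehicle library, of the same replicate number, read 26.3 in the Mitf region, 10.9 in that of Tfe3 and 20.9 in that of Naglu. The 20.9 for Naglu was above its 2 h mean after LPS, 13.4.

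With 3'SL at 2 h 4 p300 regions passed, all of Atp6v0d2 and lower (1.22% of all regions, and 33 with the block, 6.2%). At 6 h there were 2 for LPS (0.41%, 11 with the block, 2.5%) and 1 for both against 3'SL (0.246%, 12 with the block, 2.93%), again of Atp6v0d2. Without 1 of the libraries compared 2 to 3 of the 7 passed after LPS at 2 h, 0 to 3 of the 4 with 3'SL, and 0 at 6 h.

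The letters of these and the other elements were also counted in the regions themselves. Of the 43 lysosome regions called for either mark, 0 held the E-box CACGTG, 2 the M-box TCATGTGA, 8 the AP-1 element TGANTCA and 7 the PU.1 element GAGGAAGT (both strands). AP-1 (dimers of Fos and Jun proteins) and PU.1 are factors of macrophage enhancers. In the 30 promoters, the AP-1 element occurred in 5 (16.7%, against 8.97% of all genes) and the PU.1 element in 4 (13.3% against 3.69%). Over all 341 lysosome regions the E-box occurred in 20 (5.87%, against 3.83% of all regions), the M-box in 11 (3.23% against 1.24%), AP-1 in 72 (21.1% against 16.5%) and PU.1 in 45 (13.2% against 9.27%). The windows below are from called regions and are printed on the plus strand of mm10 with the element, or its reverse complement, in capitals. They are an M-box 27223 bp downstream of the Atp6v0d2 start (chr4:19895340-19895369), the PU.1 element of the p300 region of Atp6v0d2 described above (chr4:19894765-19894794), the M-box of the Ctsd region at position -10191 (chr7:142398132-142398161) and a PU.1 element (chr19:32071051-32071080) of the other Asah2 region that rose in intron 2, 32003 bp downstream of the start.
Atp6v0d2 M-box: aggcatctaaaTCACATGAcccagagaggc
Atp6v0d2 PU.1: tggttcttagcACTTCCTCcatttctggca
Ctsd M-box: tccctgagtgtctgtcaTCATGTGActgtt
Asah2 PU.1: aaatggactccACTTCCTCataagataagg

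Deposited peak lists of LXR, SREBP and p300 were compared with these regions. All LXR and SREBP libraries of the series came from cells treated with the LXR agonist GW3965. The p300 libraries cover GW3965, vehicle, 3'SL and LPS, and the p300 list is not assigned here to any of these treatments. LXR and SREBP are sterol-regulated factors, and both control cholesterol genes in macrophages. An LXR peak overlapped 129 of the 341 lysosome regions (37.8%, 95% Wilson interval 32.8% to 43.1%), against 23.2% of all regions. For SREBP it was 140 (41.1%, 35.96% to 46.35%) against 22.2%, and for p300 178 (52.2%, 46.9% to 57.4%) against 33.6%. At least 1 such region was found in 31, 33 and 34 of the 36 genes. Lysosome genes have more regions each than other genes, and peaks of 1 gene are not independent.

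Other genes of the pathway were read in the same fits, from a list of 76 further hydrolases, transporters, pump subunits, sorting receptors, inhibitors and regulators, of which 72 were tested for H3K27ac and 71 for p300. After 2 h of LPS 6 passed for H3K27ac in limma, 5 lower and 1 higher, with a median of -0.16 over the list, and 22 with the block (16 lower and 6 higher). Of all genes, 5.78% passed in limma and 23.4% with the block, and nothing particular to the list is read from its counts. The 5 that fell were Sgsh (a sulfatase of heparan sulfate, -2.73 ± 0.53, adjusted p = 0.0154), Man2b1 (α-mannosidase, -1.46 ± 0.24, 0.00908), Atp6v1c1 (a pump subunit, -1.59 ± 0.22, 0.00434), Fuca1 (α-fucosidase, -1.67 ± 0.43, 0.0493) and Sort1 (sortilin, -1.81 ± 0.47, 0.0493). Acp2, a lysosomal acid phosphatase, rose (0.97 ± 0.24, 0.039). With the authors' scaling the calls of Acp2 and Fuca1 ended and 4 remained, all lower. With 3'SL 3 fell, Sgsh (0.022), Man2b1 (0.0146) and Atp6v1c1 (0.0146), and with the block 11 fell and 5 rose, against 2.44% and 15.6% of all genes. The call of Man2b1 in this arm ended with the authors' scaling. For p300 1 fell after LPS, Tpcn1, a channel of endolysosomes (-1.89 ± 0.40, 0.0329), a call that ended with the authors' scaling, and with the block 8 passed, 5 lower and 3 higher (1.6% and 8.84% of all genes). With 3'SL 0 passed in limma, and 10 with the block, 7 lower and 3 higher (1.59% and 8.32%). At 6 h 0 of these genes passed for either mark in limma in either LPS contrast, and with the block 6 and 10 passed for H3K27ac (7.83% and 8.65% of all genes) and 3 and 4 for p300 (2.63% and 3.8%).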

How the data were processed

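The deposited signal is a tag coverage per region: per the file headers, the authors counted ChIP-seq tags with HOMER in windows of 1000 bp (H3K27ac) or 200 bp (p300) around merged accessible regions of mm10, scaled to 10,000,000 tags per library. Bowtie2, HOMER and DESeq2 are named in the submitters' processing notes, with versions not given in the sources used here. Low values gave whole tags (tolerance 0.05) in all libraries, and 10 columns that match no sample were not used. Peak lists of LXR, SREBP and p300 were used as the authors deposited them, on mm10, with an overlap of at least 1 bp.

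Regions within 100 kb were summed per gene, rescaled by TMM, filtered with filterByExpr and tested with limma 3.58.1 on log2(value + 1), with Benjamini-Hochberg adjustment over all genes or regions, in 1 fit per mark over all groups. Fold changes of low genes are understated on that scale. A window that overlaps its neighbour shares tags with it. Alternatives used edgeR 4.0.16 and DESeq2 1.42.0 on the recovered tags. The fits were also run on simulated counts that had no replicate effect. That run does not show how they behave with the shared deviations given next. Same-numbered libraries deviated together (correlation 0.455 to 0.700 over 21 pairs of groups for H3K27ac, 0.281 to 0.477 over 15 for p300), so values with the replicate number as a block stand beside those without, where they change a call. Authors' scaling moved the median of all genes by over 0.1 (log2) in 3 H3K27ac comparisons (-0.166 to 0.105) and by -0.984 to 1.092 over the p300 comparisons. Members and gene lists were chosen with earlier results of these data known. Values per library are given for genes that passed in either fit, for the 3 highest of each mark and for Tfeb, Tfe3 and Mitf.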

Additional observations from a re-analysis of the deposited data

How the results depend on the processing

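Counts of lysosome genes or regions that passed are given in the order H3K27ac after LPS at 2 h, H3K27ac with 3'SL at 2 h, H3K27ac after LPS at 6 h, H3K27ac with 3'SL at 6 h, then the same 4 contrasts for p300, leaving out those that moved by less than 1.5 times. With the replicate block, genes were 17, 7, 2, 2, 6, 7, 1 and 1 (3 for H3K27ac after 6 h against 2 h of LPS) and regions 138, 98, 26, 35, 39, 33, 11 and 12. DESeq2 called 66, 33, 11 and 12 H3K27ac regions, 10 p300 regions with 3'SL at 2 h, and 4 and 5 at 6 h. DESeq2 called 2 genes for H3K27ac with 3'SL at 2 h, 4 for 6 h against 2 h of LPS, and 1 in each 6 h contrast of either mark. With authors' scaling 2 genes were called for H3K27ac after LPS at 2 h and 0 with 3'SL and in both p300 contrasts at 2 h, and regions were 4 for H3K27ac with 3'SL at 2 h, 0 at 6 h and 0 in all 4 p300 contrasts. edgeR called 2 H3K27ac regions with 3'SL at 6 h, 0 after LPS at 6 h, 2 p300 regions after LPS at 2 h and 0 at 6 h. Without the filter 2 genes passed for H3K27ac after LPS at 2 h, and regions were 1 for H3K27ac after LPS at 6 h and 2 and 1 for p300 with 3'SL and after LPS at 6 h. A pseudocount of 10 left 1 p300 region after LPS at 6 h. Within 20 kb, 0 genes passed for H3K27ac with 3'SL at 2 h and in both p300 contrasts at 2 h, and with regions merged over transcription factors 3 passed for H3K27ac after LPS at 2 h. Leaving out 1 library gave 2 to 2, 0 to 1 and 0 to 1 genes (H3K27ac after LPS and with 3'SL, p300 with 3'SL, all 2 h) and 7 to 19, 0 to 2, 0 to 0, 0 to 0, 2 to 3, 0 to 3, 0 to 0 and 0 to 0 regions in the order above. Without LPS replicate 2 at 2 h the change of Ctsk turned to 0.274 for H3K27ac (lowest without 1 library -2.109) and 0.617 for p300 (lowest -1.352), and that of Psap to 0.044 for p300 (lowest -1.693). Over the single genes described, leaving out 1 library ended the call in 16 fits of genes that had passed in limma, and turned the sign in those 3. Most of the other fits were of genes that had not passed in limma and so had no call to lose. Requiring that a peak cover 0.5 of a region or more gave 31.1%, 32.6% and 43.1% for LXR, SREBP and p300. The p65 peak list was not run, because it is on another build. Causes of these differences were not tested, and groups of 1 or 2 libraries limit what could be detected.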
